A study of Homo sapiens with 8 samples.

Results

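The interleukin 1 genes and the inflammatory caspases that act on their products were followed in spheroids of OVCAR-8, a human ovarian carcinoma line, and of OVCAR-8R, selected from it for resistance to cisplatin. The group held 10 genes. They were the ligands IL1A, IL1B, IL18 and IL33, the receptor antagonist IL1RN, the receptors IL1R1, IL1R2 and IL1RAP, and the processing enzymes CASP1 and CASP4. These 10 of the 18417 genes measured by a probeset of a single gene were chosen by name, with their log2 differences between the lines already known. Their values in this contrast are therefore a description. No p-value is given for them, and any threshold they met is reported as a description only.

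Interleukin 1 cytokines are made largely as precursors without a secretion signal. IL-1β and IL-18 become active when an inflammatory caspase cuts them, whereas the IL-1α precursor is already active and IL-33 is released from dying cells. Caspases are switched on in inflammasomes, which are assembled by sensor proteins such as NLRP3 on the adaptor PYCARD, or, for CASP4, by bacterial lipopolysaccharide in the cytosol. IL-1α and IL-1β share the receptor IL1R1, while IL-18 and IL-33 each bind their own. The bound receptor pairs with an accessory chain, IL1RAP for IL-1 and IL-33 and IL18RAP for IL-18. It signals through MYD88, IRAK kinases and TRAF6 to NF-kB. The antagonist IL1RN and the decoy receptor IL1R2 dampen this signal. In ovarian carcinoma these cytokines are known as inflammatory signals made by tumor cells and by infiltrating leukocytes.

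RNA was measured on 8 Affymetrix Human Gene arrays, 4 of OVCAR-8R spheroids and 4 of OVCAR-8 spheroids, numbered 1 to 4 within each line. The labels call the resistant line OVCAR-8C and give the treatment groups as Cisplatin-resistant and Cisplatin-sensitive. OVCAR-8R had been grown out of OVCAR-8 in rising cisplatin concentrations up to 5 μM, a platinum drug that crosslinks DNA, and it stayed resistant after the drug was withdrawn. Both lines were grown in DMEM with 10% FBS and seeded in 2% agarose molds as spheroids of about 300 μm, and no drug treatment of the spheroids is given for either group. A single derived line was compared with its parent, so the effect of cisplatin resistance and any other difference between the lines cannot be told apart. The titles number biological replicates but do not give the step at which samples were split, so the errors below measure the spread between these arrays, which may be partly technical.

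The signals are log2 values of the deposited RMA intensities, and every difference is the OVCAR-8R mean minus the OVCAR-8 mean with its standard error from limma (n = 4 arrays per line). Array medians lay between 6.67 and 6.73, and the correlation over all probesets averaged 0.992 within lines and 0.942 between them. Among the OVCAR-8R arrays, deviations from the line mean correlated between arrays 1 and 3 (r = 0.427, over probesets) and between arrays 2 and 4 (r = 0.484). The pairs across these sets gave r from -0.763 to -0.684. The standard errors and p-values treat the 4 arrays as independent, and whether each set shares a step was not tested. A probeset whose signal fell in the lowest quartile of both lines (log2 means under 5.11 in OVCAR-8R and under 5.16 in OVCAR-8) was left out of the tests. A tested gene was called at a Benjamini-Hochberg adjusted p under 0.05 and a difference of at least 2-fold. Under this rule 8.37% of the 15931 genes tested were higher and 8.37% lower in OVCAR-8R. In bulk RNA, a smaller share of expressing cells and less RNA per cell cannot be told apart.

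Promoter sequences were matched for 8 of the 10 genes, all but IL18 and CASP1, and 5 of the 8 had several windows. The following windows are those of the RefSeq gene start (GRCh38.p14), from 250 bases before it to 50 after it, 5′ to 3′ on the gene's strand. They are shown because IL1A, IL1B and CASP4 had the largest differences among the genes with a window, and IL1R2 because its window held the one NF-kB match. Capitals mark the matched motifs.
IL1A, chr2:112784444-112784743, minus strand: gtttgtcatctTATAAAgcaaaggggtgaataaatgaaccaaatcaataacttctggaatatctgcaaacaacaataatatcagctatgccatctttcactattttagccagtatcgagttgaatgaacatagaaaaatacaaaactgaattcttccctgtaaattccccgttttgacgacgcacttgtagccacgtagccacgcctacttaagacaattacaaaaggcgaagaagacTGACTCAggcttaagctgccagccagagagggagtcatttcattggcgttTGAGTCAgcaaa
IL1B, chr2:112836730-112837029, minus strand: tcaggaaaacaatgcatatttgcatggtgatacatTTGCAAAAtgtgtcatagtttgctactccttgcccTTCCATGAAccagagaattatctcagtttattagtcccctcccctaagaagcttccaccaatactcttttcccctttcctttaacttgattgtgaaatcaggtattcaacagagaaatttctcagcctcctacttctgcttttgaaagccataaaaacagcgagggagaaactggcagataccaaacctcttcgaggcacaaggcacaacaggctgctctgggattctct
CASP4, chr11:104968525-104968824, minus strand: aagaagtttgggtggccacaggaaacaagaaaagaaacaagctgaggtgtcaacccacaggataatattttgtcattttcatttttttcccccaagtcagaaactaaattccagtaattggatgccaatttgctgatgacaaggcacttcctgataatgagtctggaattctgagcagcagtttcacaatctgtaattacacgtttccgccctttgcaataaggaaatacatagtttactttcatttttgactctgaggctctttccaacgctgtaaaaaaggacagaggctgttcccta
IL1R2, chr2:101991710-101992009, plus strand: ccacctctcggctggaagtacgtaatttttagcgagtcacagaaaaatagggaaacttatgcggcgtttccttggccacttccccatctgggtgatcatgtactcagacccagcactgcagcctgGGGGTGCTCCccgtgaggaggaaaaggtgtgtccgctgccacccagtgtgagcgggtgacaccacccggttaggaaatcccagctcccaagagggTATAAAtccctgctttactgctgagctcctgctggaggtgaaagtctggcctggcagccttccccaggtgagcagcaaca
The patterns were searched on both strands. They were AP-1 as TGANTCA, C/EBP as TTGCNNAA, STAT as TTCNNNGAA, TATA as TATAAA, and the NF-kB consensus. The AP-1 pattern reads as TGANTCA on either strand, and the STAT pattern likewise matches both strands at once. The IL1A window held 2 copies of the AP-1 pattern, beginning 12 bases before the start and at base 38 after it, and TATAAA beginning 239 bases before the start. The IL1B window held the C/EBP pattern 215 bases and the STAT pattern 180 bases before the start. None of the 5 patterns was found in the CASP4 window. The IL1R2 window held the NF-kB pattern 125 bases and TATAAA 30 bases before the start. Among all 35116 windows of this length, 7.71% held the AP-1 pattern, 10.5% the C/EBP, 7.66% the STAT, 11.3% the NF-kB and 11.5% the TATA pattern. These are letter matches and were not tested as binding sites.

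The ligands IL1A, IL1B and IL18 stood far above the parental line, and IL33 did not. IL1B, which encodes IL-1β, read 11.67, 11.71, 11.61 and 11.83 on OVCAR-8R arrays 1 to 4 and 5.22, 5.22, 4.95 and 4.85 on OVCAR-8 arrays 1 to 4. The lines did not overlap, and the parental mean of 5.06 ± 0.19 lay in the lowest quartile against 11.70 ± 0.09 (SD) in OVCAR-8R. The difference was 6.65 ± 0.10 (SE), a ratio of 100.1, and was the 7th from the top of the 15931 genes ordered by their difference. In linear intensity this was 3122 to 3641 in OVCAR-8R and 28.9 to 37.2 in OVCAR-8.

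IL18 encodes IL-18, which drives interferon-gamma production by T and NK cells. It read 10.37, 10.68, 10.30 and 10.77 in OVCAR-8R and 3.96, 3.83, 4.01 and 4.05 in OVCAR-8. All 4 parental arrays were near the bottom of the signal range and all 4 resistant arrays well above it, with no overlap. The means were 10.53 ± 0.23 and 3.96 ± 0.10, and the difference was 6.57 ± 0.11, a ratio of 94.8 and the 10th from the top.

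IL1A, the gene of the membrane-bound and nuclear alarm cytokine IL-1α, read 8.46, 8.74, 8.56 and 8.78 in OVCAR-8R and 4.69, 4.77, 4.91 and 4.81 in OVCAR-8. The lines were again fully separated, with means of 8.63 ± 0.15 and 4.79 ± 0.09. The difference of 3.84 ± 0.09, a ratio of 14.3, was 89th from the top. For IL1A, IL1B and IL18, and for CASP4 below, the ratio is taken over a parental signal in the lowest quartile, and whether that signal was above background was not tested. These 4 of the 10 genes entered the tests through the resistant line alone.

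IL33 and IL1RN gave no such separation. IL33, an alarmin stored in the nucleus, read 4.15, 4.18, 4.20 and 4.01 in OVCAR-8R and 4.10, 4.33, 4.21 and 4.18 in OVCAR-8, a difference of -0.07 ± 0.08 in a fit without the signal filter. Its lines overlapped within the lowest quartile. IL1RN, the secreted antagonist that occupies IL1R1 without signalling, read 4.68, 4.43, 4.72 and 4.47 in OVCAR-8R and 4.65, 4.74, 4.62 and 4.77 in OVCAR-8, a difference of -0.12 ± 0.09 in the same fit. Both genes were left out of the main tests, and in the fit without the signal filter neither met the call.

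**Figure D1:**
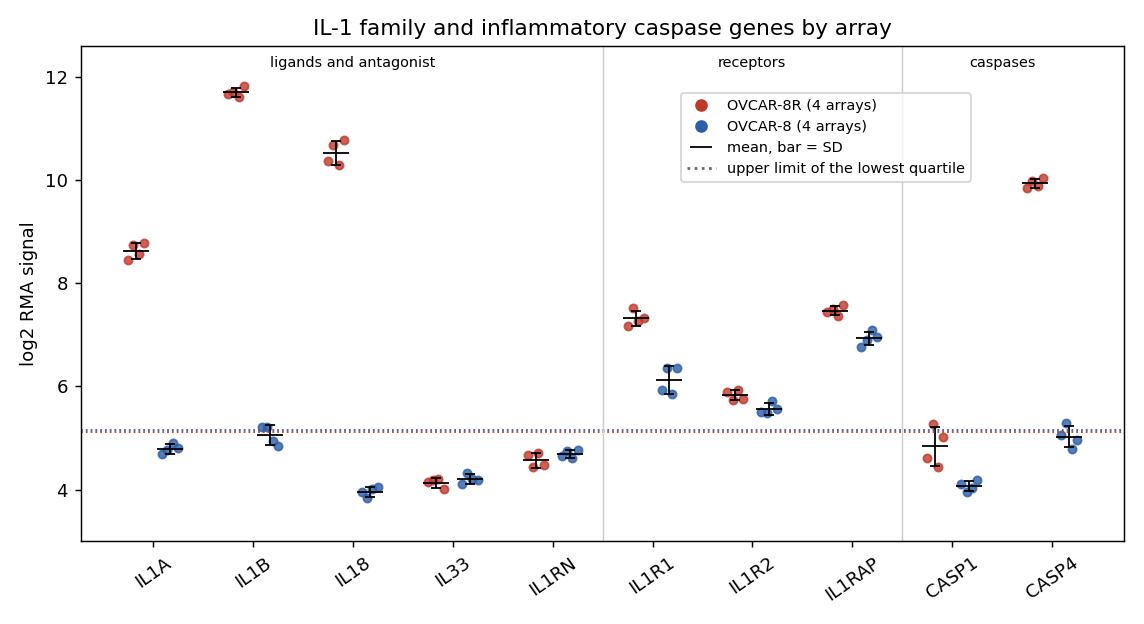
Log2 RMA signal (vertical axis) of each gene for OVCAR-8R (4 red points) and OVCAR-8 (4 blue points), mean and SD drawn in black, and the upper limit of the lowest signal quartile of each line dotted. IL1A, IL1B, IL18 and CASP4 lie between 8.46 and 11.83 in OVCAR-8R and between 3.83 and 5.29 in OVCAR-8, while IL33 and IL1RN lie under the limit on all 8 arrays.

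The receptor genes differed by far less than IL1A, IL1B and IL18. IL1R1, the signalling receptor for IL-1α and IL-1β, read 7.17, 7.52, 7.26 and 7.33 in OVCAR-8R and 5.93, 6.36, 5.86 and 6.36 in OVCAR-8. Every resistant array was above every parental array, with means of 7.32 ± 0.15 and 6.13 ± 0.27. The difference of 1.19 ± 0.14, a ratio of 2.29, met the 2-fold limit but did not when limma's treat tested for more than 2-fold, under which 5.22% of genes were higher and 4.04% lower.

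IL1RAP, the accessory chain shared by the IL-1, IL-33 and IL-36 receptors, read 7.45, 7.50, 7.36 and 7.57 in OVCAR-8R and 6.77, 6.90, 7.09 and 6.96 in OVCAR-8. Its means of 7.47 ± 0.09 and 6.93 ± 0.13 differed by 0.54 ± 0.09, a ratio of 1.45. Among the 7 of the 10 genes that entered the main tests it lay nearest to the 2-fold limit from below. IL1R2, the decoy receptor, read 5.90, 5.73, 5.94 and 5.75 in OVCAR-8R and 5.50, 5.48, 5.71 and 5.56 in OVCAR-8. Its means of 5.83 ± 0.10 and 5.56 ± 0.11 differed by 0.27 ± 0.08, a ratio of 1.2. The lines did not overlap in either gene, and both differences were under 2-fold.

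The inflammatory caspases gave unlike results. CASP4, the human sensor of cytosolic lipopolysaccharide, read 9.84, 9.99, 9.89 and 10.05 in OVCAR-8R and 5.06, 5.29, 4.79 and 4.97 in OVCAR-8. There was no overlap, and the means of 9.94 ± 0.09 and 5.03 ± 0.21 differed by 4.92 ± 0.11, a ratio of 30.2 and the 36th from the top. In linear intensity it read 918 to 1061 in OVCAR-8R and 27.6 to 39.2 in OVCAR-8. CASP1, the canonical IL-1β converting enzyme, read 4.62, 5.27, 4.43 and 5.03 in OVCAR-8R and 4.11, 3.96, 4.03 and 4.18 in OVCAR-8. All 4 resistant arrays were above all 4 parental ones, but their SD of 0.38 around a mean of 4.84 was the widest among the 10 genes, and both means lay in the lowest quartile. CASP1 was left out of the main tests. Its difference of 0.76 ± 0.17 in the fit without the signal filter, a ratio of 1.7, did not meet the call there. CASP1 shares near-identical sequence with CARD16 next to it, which read 3.98 to 4.28 in OVCAR-8R and 4.12 to 4.68 in OVCAR-8, so part of either signal may come from the other.

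**Figure D2:**
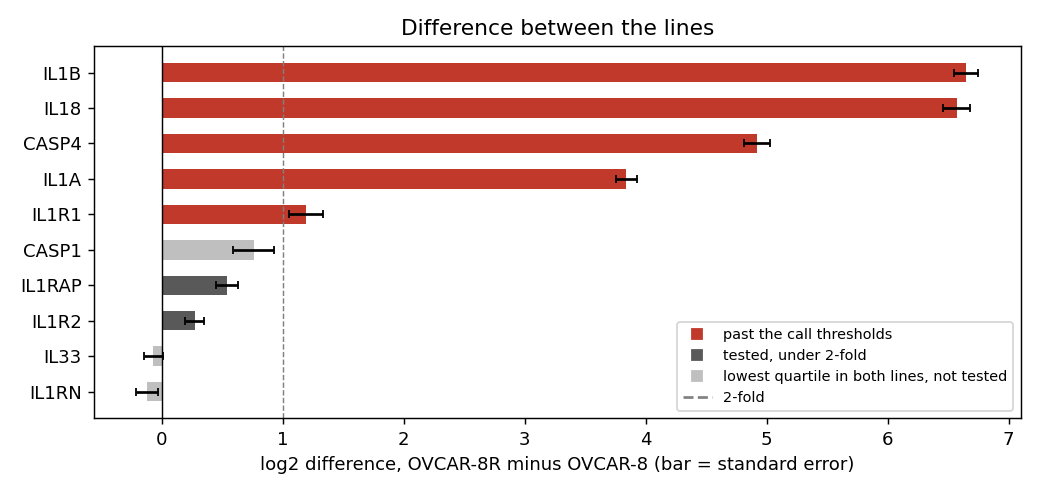
Log2 difference of OVCAR-8R minus OVCAR-8 (horizontal axis) for each gene, with the standard error as a bar and 2-fold dashed. IL1B, IL18, CASP4, IL1A and IL1R1 are past the call thresholds (red), IL1RAP and IL1R2 are under 2-fold (dark grey), and CASP1, IL33 and IL1RN were in the lowest signal quartile in both lines (light grey).

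Of the 10 genes, 7 were kept by the signal filter, 5 of these met the call in the higher direction and 0 in the lower. At an adjusted p under 0.05 with any size of difference, 27.6% of all tested genes were higher and 30.0% lower, and all 7 kept genes were among the higher. On every resistant array, 8 of the 10 genes were above every parental array, against 24.0% of all 18417 genes higher and 26.9% lower in this way. The median difference over the 10 genes was 0.98, and that over all tested genes was -0.01. Nothing is read from these counts, since the genes were selected on the same contrast. In addition, IL1A, IL1B, IL18 and CASP4 entered the tests through OVCAR-8R alone.

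Within OVCAR-8R, 7 of the 10 genes split the arrays in the same order. In IL1A, IL1B, IL18, IL1R1, IL1RAP, CASP1 and CASP4, both array 2 and array 4 were above both array 1 and array 3. In IL1RN and IL1R2 they were below, and IL33 showed neither order. Of all tested genes, 33.8% had arrays 2 and 4 above and 33.8% had them below. The range among the OVCAR-8R arrays was small beside the line difference in IL1A, IL1B, IL18 and CASP4, such as 0.47 in IL18. In CASP1 the range of 0.84 exceeded the difference between the lines, as did the ranges of 0.19 in IL33 and 0.28 in IL1RN. What separates these arrays was not tested.

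**Figure D3:**
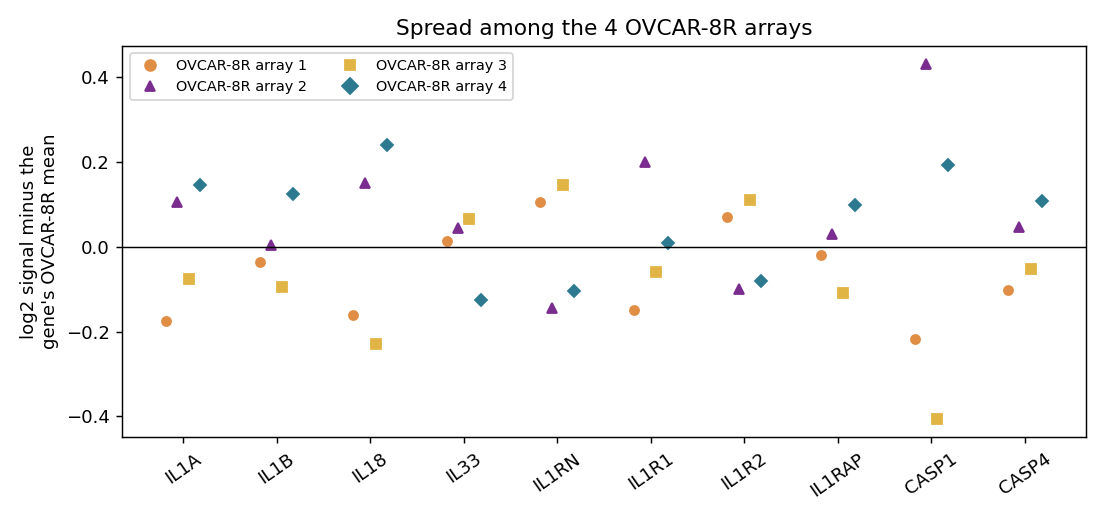
Deviation of each OVCAR-8R array from the gene's OVCAR-8R mean (vertical axis, log2) for the 10 genes. Arrays 2 (triangles) and 4 (diamonds) lie above arrays 1 (circles) and 3 (squares) in 7 genes and below them in IL1RN and IL1R2, and CASP1 spans 0.84.

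The genes next to these along the chromosomes, named by position alone in RefSeq order, did not share the differences throughout. IL1A and IL1B are adjacent on chromosome 2 in a cluster of the family. The cluster members between IL1B and IL1RN did not pass the test or were left out for low signal, with differences from -0.20 ± 0.11 in IL36A to 0.03 ± 0.07 in IL36G. On the far side of IL1A, CKAP2L rose by 1.15 ± 0.08 (limma adjusted p = 2.21e-06) and SLC20A1, a phosphate transporter gene, by 1.17 ± 0.10 (adjusted p = 5.39e-06), while NT5DC4 between them gave -0.07 ± 0.11. Beyond IL1RN, PSD4 gave 0.45 ± 0.12, and PAX8, a lineage factor of the female reproductive tract, rose by 3.77 ± 0.11 (adjusted p = 3.40e-09).

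The receptor genes form another cluster on chromosome 2. There MAP4K4, a kinase gene beside IL1R2, rose by 1.82 ± 0.09 (limma adjusted p = 1.11e-07), IL1RL2 rose and IL18R1 gave -0.91 ± 0.09, with IL1R1 and IL1R2 beside them at the values above. On chromosome 11, the genes on either side of CASP4 in the caspase cluster, CASP12 at -0.03 ± 0.07 and CASP5 at 0.05 ± 0.07, were in the lowest quartile in both lines and overlapped between them. IL18, elsewhere on chromosome 11, lay between SDHD and TEX12, and TEX12 was left out for low signal. SDHD, which encodes a subunit of succinate dehydrogenase, gave -0.16 ± 0.08 on 1 of its 2 probesets, and the other is not given here. On chromosome 3 next to IL1RAP, OSTN fell by 3.69 ± 0.16 on the log2 scale, and 2 genes to the other side CLDN1, a tight junction gene, rose by 5.00 ± 0.15. Near IL33 on chromosome 9, RANBP6 gave -0.96 ± 0.08 and UHRF2 gave -0.99 ± 0.08, both under 2-fold, and GLDC, a glycine-cleavage gene, fell by 1.21 ± 0.29 (limma adjusted p = 0.00542).

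The other genes of the pathway were taken from 8 lists that hold 125 genes. A single-gene probeset measured 117 of them, and 101 were kept by the signal filter. In OVCAR-8R, 33 were higher, 3 were lower and 65 did not pass, beside the 8.37% in each direction over all genes. At an unadjusted p under 0.05 of any size, 54 were higher and 17 lower, beside 29.5% of all tested genes higher and 32.1% lower, and the looser counts of the lists below are to be read against these shares. Their median difference was 0.33. The lists were written with earlier results of these data known, and several response genes had been named there, so the counts are a description.

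Among the other ligands and antagonists, 0 of the 6 kept passed limma's test in either direction. At an unadjusted p under 0.05 with no limit on size, and by the methods' t-test, 0 passed as well. IL36G, an epithelial cytokine, gave 0.03 ± 0.07, and IL37, an anti-inflammatory relative, gave -0.01 ± 0.10. IL18BP, which binds and neutralises IL-18, gave -0.12 ± 0.08, with 7.05 to 7.16 in OVCAR-8R and 7.09 to 7.37 in OVCAR-8. The lines overlapped in all 3.

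Among the other receptors, 1 of 5 kept rose and 0 fell, and at an unadjusted p under 0.05 of any size 2 were higher and 1 lower. IL1RL2, which binds the IL-36 cytokines and pairs with IL1RAP, read 7.29, 7.79, 7.34 and 7.78 in OVCAR-8R and 4.96, 5.03, 5.12 and 4.65 in OVCAR-8. The lines were separated, and the rise was 2.61 ± 0.15 (limma adjusted p = 3.55e-07). Its parental signal lay in the lowest quartile, so it entered the tests through OVCAR-8R alone, and the call held in the fit without the signal filter. IL18R1, the ligand-binding chain of the IL-18 receptor, read 4.39 to 4.54 in OVCAR-8R and 5.21 to 5.55 in OVCAR-8. Its difference of -0.91 ± 0.09 was under 2-fold (adjusted p = 1.09e-05), and its partner IL18RAP was in the lowest quartile in both lines. IL1RL1, the IL-33 receptor, gave 0.62 ± 0.08, and the inhibitory receptor SIGIRR gave -0.03 ± 0.12.

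Among the inflammasome sensors and adaptors, 4 of 11 kept rose and 0 fell, against 6 higher and 1 lower at an unadjusted p under 0.05. NLRP3, the sensor of potassium efflux and other cell stress, read 6.97, 6.75, 7.01 and 6.76 in OVCAR-8R and 5.24, 5.20, 5.32 and 5.24 in OVCAR-8, a rise of 1.62 ± 0.08 (limma adjusted p = 1.62e-07). All resistant arrays were above all parental ones. TXNIP, a thioredoxin-binding protein that associates with NLRP3, rose by 1.60 ± 0.14 (adjusted p = 7.87e-06), and the channel gene PANX1 by 1.32 ± 0.09 (adjusted p = 1.20e-06). DPP9, a peptidase that restrains inflammasome sensors, rose by 1.06 ± 0.12 (adjusted p = 4.13e-05), a call that was lost without OVCAR-8 array 2 at 0.96. PYCARD, the adaptor between sensor and CASP1, did not pass, with 6.13 to 6.59 in OVCAR-8R, 5.77 to 6.28 in OVCAR-8 and a difference of 0.21 ± 0.13. The sensors AIM2 and NLRC4 were in the lowest quartile in both lines, and no single-gene probeset measured NLRP1.

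Among the other caspases and their regulators, 1 of 6 kept rose and 1 fell, against 2 higher and 2 lower at an unadjusted p under 0.05. SERPINB1, an inhibitor of neutrophil proteases and of inflammatory caspase activation, rose by 1.76 ± 0.08 (limma adjusted p = 8.92e-08). CARD8, an inflammasome sensor held by DPP9, fell by 1.05 ± 0.10 (adjusted p = 9.67e-06). A second probeset of CARD8 gave -0.62 and did not pass, and the call was also lost without OVCAR-8R array 3 at -0.99. CASP8, the initiator caspase of death receptors, gave -0.40 ± 0.09, and CASP5 was in the lowest quartile in both lines.

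Among the pyroptosis executors, which form membrane pores or rupture the membrane, 1 of 4 kept rose and 0 fell, against 3 higher and 0 lower at an unadjusted p under 0.05. GSDME, a gasdermin cut by apoptotic caspases, read 8.86, 9.02, 8.85 and 9.00 in OVCAR-8R and 6.92, 6.70, 6.68 and 6.99 in OVCAR-8, a rise of 2.11 ± 0.09 (limma adjusted p = 6.41e-08). GSDMD, the gasdermin cut by CASP1 and CASP4, read 7.17 to 7.42 in OVCAR-8R and 6.26 to 6.85 in OVCAR-8. The lines did not overlap in either gene, but the GSDMD difference of 0.69 ± 0.12 was under 2-fold (adjusted p = 0.00105).

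Among the genes of caspase-independent maturation, release and shedding, 5 of 17 kept rose and 1 fell, against 9 higher and 5 lower at an unadjusted p under 0.05. Of the 5, CAPN1, CAPN2 and CAPNS1 encode calpain subunits, parts of the calcium-dependent proteases that cut the IL-1α precursor. CAPN2 rose by 1.63 ± 0.06 (limma adjusted p = 3.27e-08), CAPN1 by 1.51 ± 0.11 (adjusted p = 1.99e-06) and their shared small subunit CAPNS1 by 1.34 ± 0.10 (adjusted p = 2.72e-06). Their inhibitor CAST gave 0.93 ± 0.07, under 2-fold. ANXA2, a calcium-dependent membrane-binding protein, rose by 2.62 ± 0.09 (adjusted p = 1.51e-08). ERAP1, an aminopeptidase also known to promote shedding of IL1R2, rose by 1.32 ± 0.08 (adjusted p = 6.37e-07). HAX1, an anti-apoptotic protein that binds the IL-1α propiece, fell by 1.72 ± 0.09 (adjusted p = 2.96e-07), with 8.20 to 8.37 in OVCAR-8R and 9.85 to 10.21 in OVCAR-8.

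Among the genes of IL-1 receptor signalling, 3 of 22 kept rose, 1 fell and 18 did not pass, against 10 higher and 6 lower at an unadjusted p under 0.05. MYD88, the adaptor of the receptor, read 8.60, 8.78, 8.65 and 8.56 in OVCAR-8R and 7.20, 7.40, 7.20 and 7.05 in OVCAR-8, a rise of 1.44 ± 0.09 (limma adjusted p = 7.36e-07). IRAK2, a kinase of the late signal, rose by 1.76 ± 0.10 (adjusted p = 4.96e-07). IRAK3, the inhibitory member of the IRAK family, read 6.42, 7.24, 6.63 and 7.64 in OVCAR-8R and 4.58, 4.56, 4.57 and 4.10 in OVCAR-8, a rise of 2.53 ± 0.25 (adjusted p = 1.55e-05). Its OVCAR-8R arrays 2 and 4 were above arrays 1 and 3, an order that 33.8% of all tested genes showed, whereas NLRP3 ran the other way. IRAK3 too entered the tests through OVCAR-8R alone, and the call held without the filter. PELI2, a ubiquitin ligase of IRAK proteins, fell by 1.02 ± 0.10 (adjusted p = 1.85e-05), and this call was lost without OVCAR-8R array 2 at -0.99, without OVCAR-8R array 4 at -0.98 and without OVCAR-8 array 3 at -0.95. The kinase gene IRAK1 gave -0.13 ± 0.08 and the ligase gene TRAF6 gave -0.07 ± 0.08, and the lines overlapped in both. TOLLIP, which restrains IRAK signalling, gave 0.75 ± 0.07, under 2-fold. No single-gene probeset measured IRAK4 or TAB1.

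Among the genes known to respond to IL-1, most of which also respond to other inflammatory signals, 18 of 30 kept rose and 0 fell, with a median difference of 1.77. At an unadjusted p under 0.05 of any size, 22 were higher and 2 lower, and the methods' t-test gave the same 18 and 0 as counts. MMP1, an interstitial collagenase, rose by 6.86 ± 0.17 (limma adjusted p = 1.30e-09), the cytokine gene IL6 by 6.62 ± 0.09 (adjusted p = 9.10e-11) and the adhesion gene ICAM1 by 5.27 ± 0.13 (adjusted p = 1.27e-09). The complement gene C3 rose by 5.05 ± 0.09 (adjusted p = 2.79e-10) and the neutrophil chemokine gene CXCL8 by 4.41 ± 0.17 (adjusted p = 2.94e-08). The list was not uniform. PTGS2, which encodes the inducible cyclooxygenase, read 6.60 to 6.66 in OVCAR-8R and 7.46 to 7.59 in OVCAR-8, a difference of -0.89 ± 0.07 that was under 2-fold (adjusted p = 1.98e-06). The monocyte chemokine gene CCL2 gave -0.39 ± 0.11, and both of these examples were chosen after their values were seen.

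**Figure D4:**
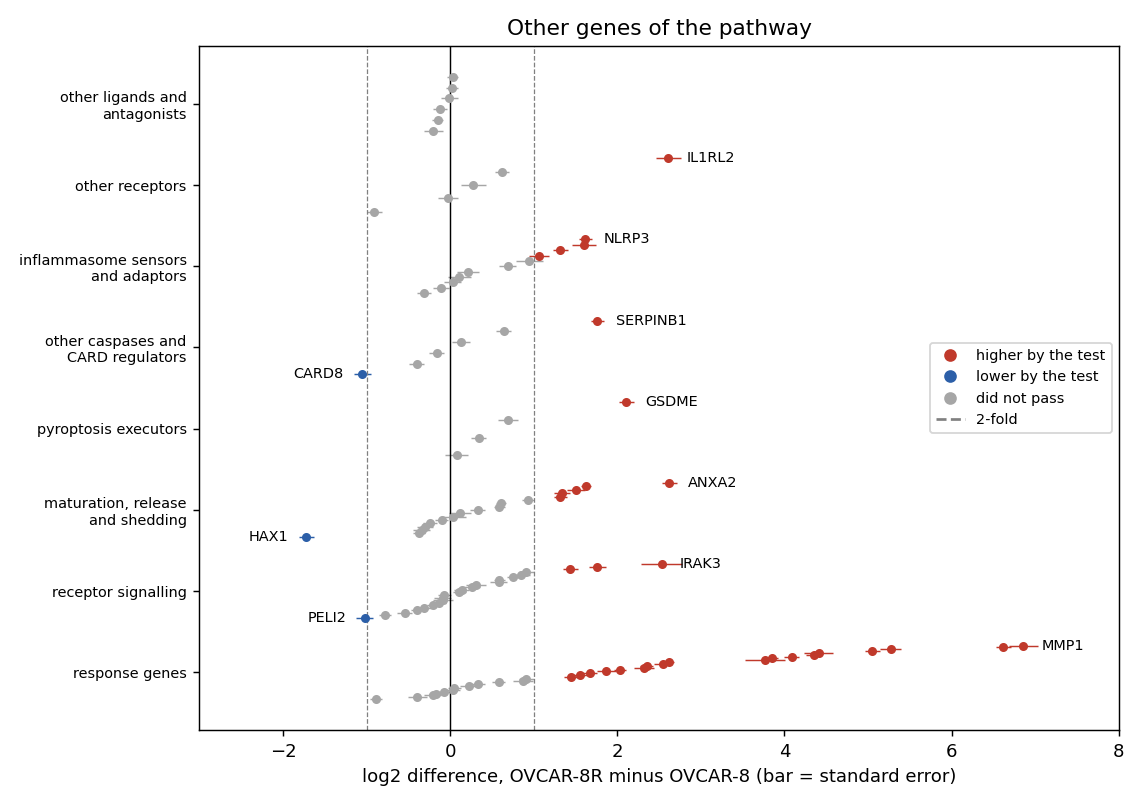
Log2 difference of OVCAR-8R minus OVCAR-8 (horizontal axis, standard error as a bar, 2-fold dashed) for the 101 kept genes of the 8 pathway lists, one point per gene. Red points (33) were higher and blue points (3) lower by the test, and of the lists the response genes hold 18 of the red points.

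The genes whose signals followed IL1B most closely over the 8 arrays were CD44 (Pearson r = 0.9998), TMBIM1 (0.9997), C3 (0.9997), SLC35D2 (0.9996) and FHL2 (0.9996). For IL18 they were CCDC80 (0.9999), ARHGAP29, MYOF and THBS1 (0.9997 each) and CD24 (0.9996). Such values are set mainly by the step between the lines, and 671 genes for IL1B and 753 for IL18 had an r over 0.99. CASP1 varied more among the resistant arrays, and 0 genes passed that level for it. Its closest were ORMDL2 (0.9848), PARP4 (0.9838), OR9A2 (0.9801), SNAP91 (0.9799) and ACTR3C (0.9780). All 8 arrays share the normalization, and these correlations are descriptions.

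Leukocytes also make these cytokines, and their markers were read beside them. Of 16 leukocyte markers, 14 were measured, and 6 of these were in the lowest quartile in both lines, including PTPRC, the pan-leukocyte phosphatase, and LYZ, CD3E and MS4A1, which mark myeloid, T and B cells. CD68, a lysosomal glycoprotein of macrophages, rose by 2.52 (limma adjusted p = 8.60e-09), and 7 did not pass. Of these 7, ITGAX at 0.89 (limma adjusted p = 7.43e-06) and CD14 at 0.23 (adjusted p = 0.0737) were higher on every OVCAR-8R array. CD79A at -0.24 (adjusted p = 0.0169) was lower on every OVCAR-8R array. The summed linear intensity of the list was 3032 to 3198 in OVCAR-8R and 1098 to 1242 in OVCAR-8, and the mean log2 signal was 5.81 to 6.00 and 5.64 to 5.72. Without CD68, the other 13 summed to 712 to 846 in OVCAR-8R and 719 to 783 in OVCAR-8. CD68 was the only marker of the list that passed, so leaving it out follows its value, and nothing is read from this sum. All 16 markers of ovarian carcinoma epithelium were measured, of which 8 rose, among them KRT7 by 4.45, MSLN by 3.83 and EPCAM by 2.01, and 0 passed as lower. Markers of the same list lay lower on every OVCAR-8R array by less than 2-fold, with -0.86 in WT1 (limma adjusted p = 2.02e-04), -0.69 in EMX2 (adjusted p = 3.12e-04) and -0.23 in CDH1 (adjusted p = 0.0465). Their summed intensity was 13572 to 14509 in OVCAR-8R and 2521 to 2849 in OVCAR-8. Of 10 fibroblast markers, COL1A1 rose by 2.04, LUM fell by 1.15 and 3 were in the lowest quartile in both lines. LUM entered the tests through OVCAR-8 alone. PDGFRB at 0.60 (limma adjusted p = 2.42e-04) and THY1 at 0.26 (adjusted p = 0.0152) were under 2-fold but higher on every OVCAR-8R array. POSTN, left out for low signal, was lower on every OVCAR-8R array at -0.17. Of 6 endothelial markers 0 passed. The part of these markers in the values above was not tested.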

How the data were processed

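RNA from 4 OVCAR-8R and 4 OVCAR-8 spheroid samples was measured on Affymetrix Human Gene 1.0 ST arrays. The authors computed probeset intensity by RMA in Affymetrix Expression Console, a procedure of background correction, quantile normalization and probe summary, and deposited it on a linear scale. After quantile normalization a shift of all genes in one line would not be seen. The log2 of each deposited intensity was taken here.

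The table holds 33297 probesets. The annotation names 1 gene for 19460 of them and several for 1754, and leaves 12083 unnamed here. RefSeq (GRCh38.p14) held 19429 of the 19460 by gene identifier, and 0 symbols changed. As in the methods, a probeset was dropped if both lines had it among their lowest 25% of signals, which kept 25628. A gene with several probesets was read from the probeset of highest mean signal. The lines were compared in limma 3.58.1 under R 4.3.3 (lmFit, then eBayes), and p-values were adjusted over all kept probesets by Benjamini-Hochberg. The methods name Student's test with q-values. Student's test was run as an alternative, with Benjamini-Hochberg adjustment in place of q-values.

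The 10 genes and the pathway lists were chosen with earlier results of these data known. Named genes are the 10, up to 5 called genes of each list and direction with the largest difference, a list of core pathway genes whatever their values, and the 5 genes most like IL1B, IL18 and CASP1 each. CAST, PTGS2 and CCL2 were added after their values were seen, and the neighbours by position. The check for single arrays that stand apart covered the 10 and the 40 pathway genes of the rule, and not the genes most like them or those added. Samples were grouped by the labels. Their replicate numbers were not used as pairs in the main fit (closing section). The procedure was tested on simulated data. Those arrays were drawn independently, so the simulation did not check it under the correlations seen among the OVCAR-8R arrays. An array has no read depth, and precision is limited by the 4 arrays of each line. Promoters were searched for the 5 patterns that the report names. The alternatives were other signal filters, thresholds and tests, an intensity trend, rescaled arrays, array weights, averaging the probesets of a gene, the replicate number as a block, and dropping single arrays. Platinum uptake, viability and survival data were not analysed here.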

Additional observations from a re-analysis of the deposited data

Results flagged for a closer look

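Single arrays were compared with the others of their line in 50 genes, the 10 and 40 named from the pathway lists, which gave 100 groups of 4 arrays. In 5 of them 1 array stood apart, a gap that chance gives in about 1 of 20 groups, and none of these was in a ligand, receptor or caspase of the 10. CARD8 read 7.69 on OVCAR-8 array 2 against 7.90 to 7.92 on the others, and CAPNS1 read 9.90 on the same array against 10.23 to 10.29. IRAK3 read 4.10 on OVCAR-8 array 4 against 4.56 to 4.58. In OVCAR-8R, MMP1 read 13.37 on array 3 against 13.23 to 13.25, and ICAM1 read 11.38 on array 2 against 11.23 to 11.24. In each of these genes the gap was smaller than the difference between the lines.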

How the results depend on the processing

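Under 19 alternatives, 8 of them leaving out 1 array, the number of the 10 genes that met the call in the higher direction was 4 with treat, 7 with any size of difference and 5 otherwise, and 0 met it in the lower direction. With treat at 2-fold IL1R1 (1.19) was lost. Of the other pathway genes, 33 were higher and 3 lower. With any size of difference these were 53 and 17, and with treat 31 and 1, where DPP9, CAPNS1, CARD8 and PELI2 were lost. Cyclic loess gave 36 higher, and the mean of a gene's probesets gave 2 lower, without CARD8 (-0.84). The methods' t-test gave 33 and 3. Leaving out each array in turn gave 32 to 34 higher and 2 to 3 lower. With the replicate block, 5 of the 10 genes and 33 higher and 3 lower pathway genes passed. Same-numbered arrays of the lines correlated at 0.165, -0.323, -0.0515 and 0.443 in their deviations from the line means. The value for array 4 was the highest between the lines, whereas OVCAR-8R arrays 1 and 3 correlated best with OVCAR-8 array 2 (0.353 and 0.276). These values do not decide whether a number stands for a shared step, which the labels do not give. The 4 parental signals in the lowest quartile limit how exactly the ratios of IL1A, IL1B, IL18 and CASP4 are known.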
